A study of Mus musculus with 10 samples.

Results

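The distal Pcdhb genes are Pcdhb17, Pcdhb18, Pcdhb19, Pcdhb20, Pcdhb21 and Pcdhb22, the last 6 genes of the beta protocadherin cluster on mouse chromosome 18. They were chosen by name and position, as the rows of the count table that carry these 6 symbols, out of 35542 genes in all. RNA was sequenced from the frontonasal prominence (FNP), which gives rise to the forehead and nose, of E10.5 embryos of the FVB/NJ strain. The 4 MD1 libraries were made from embryos with 2 copies of MommeD1, an Smchd1 allele that the study treats as null, and the 6 WT libraries from embryos with 2 wild-type copies. By their labels, 2 MD1 libraries were male and 2 female, and 3 WT libraries were male and 3 female. SMCHD1 is a chromatin protein known for silencing of the inactive X chromosome and of several autosomal gene clusters, the clustered protocadherins among them, and the comparison addresses what its loss does to expression in this tissue. The labels do not say whether each library came from its own embryo, and p-values therefore cover the spread among these libraries only.

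Clustered protocadherins are cell-surface adhesion proteins of the cadherin family, encoded by neighbouring arrays named alpha, beta and gamma. Each beta gene has its own promoter and encodes a whole protein with extracellular cadherin repeats, 1 transmembrane stretch and a short tail inside the cell. The variable exons of the alpha and gamma arrays, by contrast, are spliced to constant exons shared within their array. In neurons, single cells express different combinations of these isoforms, which bind to matching isoforms on other membranes and are known for self-avoidance of dendrites. The distal beta genes all encode adhesion isoforms of this kind, so no separate role is given below for each.

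On GRCm38, with identical coordinates in the count table and in GENCODE M21, the 6 genes lie on the plus strand between positions 37484795 and 37524479, a stretch of 39685 bases of which their exons cover 78.8%. Pcdhb17 (ENSMUSG00000046387, 37484795 to 37489454) ends 10 bases before Pcdhb18 (ENSMUSG00000048347, 37489465 to 37494505). Pcdhb19 (ENSMUSG00000043313, 37496991 to 37504128) follows after a gap of 2485 bases and ends 135 bases before Pcdhb20 (ENSMUSG00000046191, 37504264 to 37507822). After a further gap of 5798 bases, Pcdhb21 (ENSMUSG00000044022, 37513621 to 37518325) overlaps the start of Pcdhb22 (ENSMUSG00000073591, 37517871 to 37524479) by 455 bases on the same strand. The first 5 genes are annotated with a single exon, and Pcdhb22 with 3 exons over 2 transcripts that together cover its whole span without a break. Coding sequence is 2322 to 2403 bases long in all 6, but gene models run from 3559 bases in Pcdhb20 to 7138 bases in Pcdhb19, so the untranslated part differs most, and coding sequence takes 33.7% of Pcdhb19 against 67.4% of Pcdhb20.

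Because these genes resemble one another, and Pcdhb21 and Pcdhb22 overlap, reads can be shared between genes. Of all windows of 75 bases, the read length of the study, 0.201% of those in Pcdhb18, 1.08% in Pcdhb19, 1.20% in Pcdhb17 and 1.69% in Pcdhb20 were also found in a transcript of another gene. That share was 6.08% in Pcdhb22 and 8.96% in Pcdhb21, and both lists of matching genes hold the other of these overlapping neighbours. Windows within their 455 shared bases count toward both shares, whether or not the genes resemble each other elsewhere. The sources used here do not say how the authors' counting divided such reads, and the values of Pcdhb21 and Pcdhb22 are less certain in that part than those of the other 4 genes.

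Library totals ran from 4195119 counts in MD1 replicate 3 to 24125084 in WT replicate 3. Smchd1 itself stood at 78.5 ± 20.8 CPM in MD1 and 246 ± 14 CPM in WT (SD, n = 4 and 6), and every MD1 library lay below every WT library (log2 fold change -1.65, SE 0.15, edgeR adjusted p = 0.000746). Levels in CPM are counts scaled to library size in the usual way, after edgeR's TMM normalization. A pair of MD1 libraries stand apart. The library labelled MD1 female replicate 1 had Ddx3y, a Y-linked gene, at 88.1 CPM, within the range of the male libraries, and Xist, the RNA of the inactive X, at 203 CPM, so its label goes against its Y-linked reads. MD1 female replicate 4 had 0 reads in Ddx3y and 6717 CPM in Xist, and its summed hypoxia response genes reached 11952 CPM, against 1570 to 2736 CPM in the other MD1 libraries and 1216 to 2665 CPM in WT. Results that rest on these 2 libraries are given with and without them.

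All 6 distal Pcdhb genes had higher mean levels in MD1 than in WT, and Pcdhb22 and Pcdhb19 passed the test. Log2 fold changes ran from 0.83 in Pcdhb17 to 2.11 in Pcdhb22, with a median of 1.52 over the 6 genes beside a median of 0.00 over all 15452 autosomal genes tested, of which 50.5% had an estimate above 0. All 6 genes passed the filter on low counts. The test was edgeR's quasi-likelihood test with Benjamini-Hochberg adjustment over those 15452 genes and a threshold of 0.05. It called 12 genes in either direction, 0.0777% of those tested, and 11 of them were higher in MD1, 0.0712%, against 2 of the 6 distal Pcdhb genes. At an unadjusted p under 0.05, 990 genes were higher in MD1, 6.41% of those tested, and all 6 distal Pcdhb genes were among them. Every MD1 library lay above every WT library for 153 genes, 0.99% of those tested, and for 3 of the 6, Pcdhb18, Pcdhb19 and Pcdhb22. In a bulk tissue, more expressing cells and more RNA per cell cannot be told apart.

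**Figure D1:**
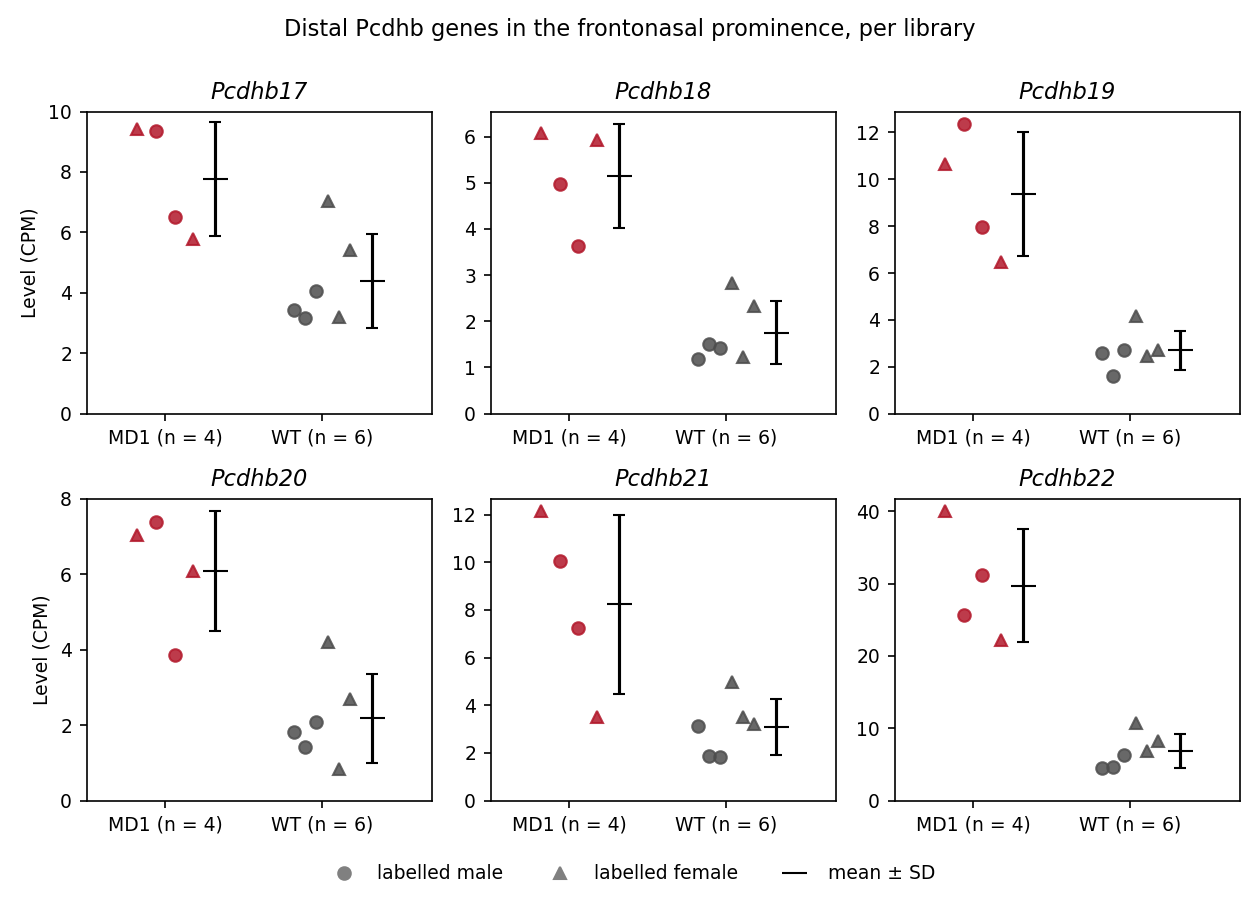
Levels of the 6 distal Pcdhb genes in CPM (vertical axis, starting at 0 in each panel) per library, MD1 (red, n = 4) and WT (grey, n = 6), circles for libraries labelled male, triangles for those labelled female, with the mean ± SD beside the points. The genotypes do not overlap in Pcdhb18, Pcdhb19 and Pcdhb22, and overlap in Pcdhb17, Pcdhb20 and Pcdhb21.

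Pcdhb22, the last gene of the cluster, was the highest of the 6 and changed the most. It had 40.0, 25.6, 31.1 and 22.2 CPM in MD1 replicates 1 to 4, against a lowest value of 4.51, a median of 6.57 and a highest of 10.7 CPM in WT. The groups were far apart, since the lowest MD1 library was 2.06 times the highest WT library. Pcdhb22 averaged 29.7 ± 7.78 CPM in MD1 and 6.88 ± 2.36 CPM in WT (SD, n = 4 and 6). The log2 fold change was 2.11 (SE 0.25, 95% interval 1.57 to 2.64, edgeR adjusted p = 0.00614), a fold of 4.30, and Pcdhb22 had the 4th smallest p of all genes tested. These levels rest on 129 to 842 reads per MD1 library and 42 to 197 per WT library.

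Pcdhb19 was the other gene past the threshold. Its levels were 10.6, 12.4, 7.97 and 6.46 CPM in MD1 replicates 1 to 4, against 1.6 CPM in the lowest, a median of 2.64 and 4.15 CPM in the highest WT library. No MD1 library came within the WT range, and the lowest of them, replicate 4, was 1.56 times the highest WT library. Pcdhb19 averaged 9.35 ± 2.64 CPM in MD1 and 2.70 ± 0.821 CPM in WT (SD, n = 4 and 6), and the log2 fold change was 1.79 (SE 0.26, 95% interval 1.23 to 2.35, edgeR adjusted p = 0.0265). That call was lost when any 1 of 8 libraries was left out, namely WT replicates 1, 2, 3, 5 or 6 or MD1 replicates 1, 2 or 3, with edgeR adjusted p between 0.0561 and 0.188. It held without WT replicate 4 (0.0141) and without MD1 replicate 4 (0.00209).

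Pcdhb18 did not pass the threshold, although its groups did not overlap. It was at 6.08, 4.98, 3.62 and 5.92 CPM in MD1 replicates 1 to 4, against 1.18, 1.47 and 2.84 CPM as the lowest, median and highest WT values. The shallowest library, MD1 replicate 3, was the lowest of the MD1 libraries with 15 reads, and was still 1.28 times WT replicate 4, the highest WT library. The means were 5.15 ± 1.13 CPM in MD1 and 1.75 ± 0.676 CPM in WT (SD, n = 4 and 6), and the log2 fold change was 1.56 (SE 0.28, edgeR adjusted p = 0.113). Without WT replicate 4 the adjusted p of edgeR was 0.0438, while leaving out any other single library gave 0.120 to 0.440. Without both libraries labelled MD1 female the log2 fold change was 1.31 and the adjusted p of edgeR 0.415.

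Pcdhb20, the gene with the shortest model, had 7.03, 7.37, 3.86 and 6.08 CPM in MD1 replicates 1 to 4. In WT its lowest level was 0.850 CPM, from 9 reads in replicate 5, the median was 1.95 and the highest level was 4.20 CPM, in replicate 4. The groups overlapped through MD1 replicate 3 and WT replicate 4 alone. Pcdhb20 averaged 6.08 ± 1.58 CPM in MD1 and 2.18 ± 1.17 CPM in WT (SD, n = 4 and 6), and the log2 fold change was 1.49 (SE 0.35, edgeR adjusted p = 0.493).

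Pcdhb21 had the widest spread of the 6 among MD1 libraries relative to its mean. Its values were 12.2, 10.1, 7.24 and 3.49 CPM in MD1 replicates 1 to 4, against 1.83 CPM, a median of 3.16 and 4.96 CPM as the lowest and highest in WT. MD1 replicate 4 lay inside the WT range, while the other 3 lay above every WT library. The means were 8.24 ± 3.75 CPM in MD1 and 3.08 ± 1.16 CPM in WT (SD, n = 4 and 6), and the log2 fold change was 1.44 (SE 0.36, edgeR adjusted p = 0.496). Without MD1 replicate 4 the log2 fold change was 1.73 and the adjusted p of edgeR 0.0300. Without MD1 replicate 1 instead they were 1.17 and 0.368, and without both 1.54 and 0.380. Leaving out any single library other than MD1 replicate 4 gave an adjusted p of 0.256 to 0.739 in edgeR.

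Pcdhb17, the first of the 6, changed the least. It had 9.40, 9.36, 6.52 and 5.77 CPM in MD1 replicates 1 to 4, against 3.16, 3.75 and 7.04 CPM as the lowest, median and highest WT values. MD1 replicates 1 and 2 lay above all WT libraries, and replicates 3 and 4 lay below WT replicate 4. Pcdhb17 averaged 7.76 ± 1.89 CPM in MD1 and 4.39 ± 1.55 CPM in WT (SD, n = 4 and 6). Its log2 fold change was 0.83 (SE 0.26, 95% interval 0.26 to 1.39, edgeR adjusted p = 0.496), and it passed the threshold under none of the 24 other settings tried.

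The count of distal Pcdhb genes past the threshold moved with the test and with single libraries, whereas the fold changes stayed higher in MD1 for all 6 genes under all 24 other settings. Pcdhb22 passed in 22 of those settings and Pcdhb19 in 13. DESeq2 called 5 of the 6, all but Pcdhb17, where it called 51 genes in all, 0.33% of those tested, and edgeR's exact test called 4 (Pcdhb18, Pcdhb19, Pcdhb20 and Pcdhb22), where it called 29 genes in all, 0.188%. Limma-voom called 3 of the 6 (Pcdhb18, Pcdhb19 and Pcdhb22) among 12 genes, 0.0777%, and limma on the deposited log2 RPKM called Pcdhb22 among 4 genes, 0.0259%. Leaving out 1 library at a time gave 1 to 3 called genes, with between 0.0257% and 0.0835% of all genes called. Pcdhb22 alone remained without WT replicate 1, 2, 3, 5 or 6 or without MD1 replicate 1, 2 or 3. There were 3 called genes without WT replicate 4 (Pcdhb18, Pcdhb19 and Pcdhb22) and without MD1 replicate 4 (Pcdhb19, Pcdhb21 and Pcdhb22). Without both libraries labelled MD1 female, Pcdhb19 and Pcdhb22 were called among 6 of 15574 genes, 0.0385%, and the median log2 fold change of the 6 was 1.47.

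**Figure D2:**
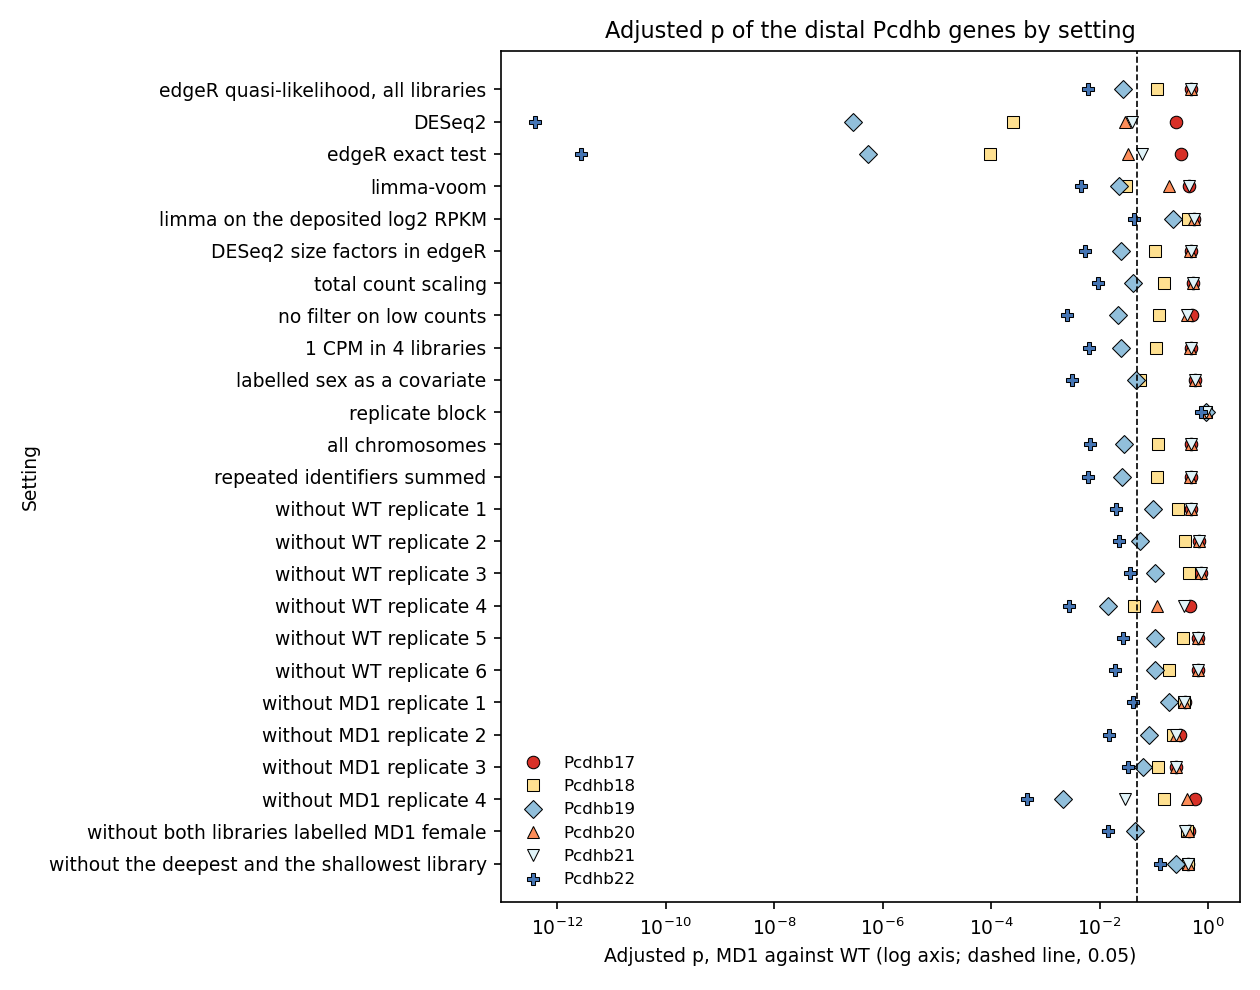
Adjusted p (horizontal log axis) of each distal Pcdhb gene for MD1 against WT, under the edgeR quasi-likelihood test with all libraries (top) and under the 24 other settings, 1 row each. The dashed line marks 0.05. Pcdhb22 lies left of it in 22 of the 24 other settings and Pcdhb19 in 13.

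Added up, the 6 genes had 85.3, 69.7, 60.3 and 49.9 CPM in MD1 replicates 1 to 4. In WT replicates 1 to 6 the sums were 16.6, 14.2, 18.5, 33.9, 18 and 24.6 CPM. The lowest MD1 sum thus lay above the highest WT sum, that of replicate 4. The means were 66.3 ± 15 CPM in MD1 and 21.0 ± 7.22 CPM in WT (SD, n = 4 and 6), a ratio of 3.16, and Pcdhb22 made up 50.4% of the difference. The other Pcdhb genes together stood at 57.1 ± 10.3 CPM in MD1 and 15.4 ± 5.07 CPM in WT, a ratio of 3.70. The distal genes accordingly took 53.5 ± 2.39% of all Pcdhb reads in MD1 and 57.8 ± 3.34% in WT (SD, n = 4 and 6), and the ranges, 50.8 to 56.5% in MD1 and 54.1 to 61.8% in WT, overlapped.

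WT replicate 4 was the highest WT library for each of the 6 genes. Among MD1 libraries the lowest was replicate 4 for Pcdhb17, Pcdhb19, Pcdhb21 and Pcdhb22, and the shallow replicate 3 for Pcdhb18 and Pcdhb20. The spread among libraries is given here beside the part that read counting alone would give. In MD1 the SD of Pcdhb21 was 45.5% of the mean against 13.1% from counting, and that of Pcdhb18 was 21.9% against 16.4%, the closest of the 6 in that genotype. In WT the SD was 34.3% of the mean for Pcdhb22, where counting alone would give 10.6%, and 53.7% for Pcdhb20, where it would give 20.9%.

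Within each sex by label, the 6 genes were again higher in MD1 on average, but few calls remained. Among males, whose 5 libraries include neither of those that stand apart, although all 10 libraries shared 1 estimate of the spread, log2 fold changes from 17 to 22 in gene order were 1.18, 1.65, 2.17, 1.71, 1.99 and 2.43, and Pcdhb22 passed the threshold (edgeR adjusted p = 0.0246). That contrast called 3 of 15982 genes on all chromosomes, 0.0188%. The call was lost without MD1 replicate 2 or 3 or WT replicate 1, 2, 3 or 6, with edgeR adjusted p for Pcdhb22 between 0.0941 and 0.450 and log2 fold changes between 2.30 and 2.63. It held without MD1 replicate 1 (adjusted p = 0.00110), without MD1 replicate 4 (0.00102) and with males fitted alone (0.00425). For Pcdhb22, MD1 males had 25.6 and 31.1 CPM, against 4.51, 4.63 and 6.35 CPM in WT males. Among libraries labelled female, the log2 fold changes were 0.53, 1.46, 1.45, 1.30, 1.01 and 1.85 in the same order. None of the 6 passed the threshold there in edgeR, the smallest adjusted p was 0.0996 for Pcdhb22, and 1 gene of 15982 was called, 0.00626%. In that contrast 5 of the 6 had an unadjusted p under 0.05, but the share of all genes at that p was not counted. MD1 libraries labelled female had 40.0 and 22.2 CPM of Pcdhb22, against 10.7, 6.80 and 8.25 CPM in WT females.

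The difference between the effects in the sexes, female minus male, was negative for all 6 genes, from -0.98 in Pcdhb21 (SE 0.67) to -0.19 in Pcdhb18 (SE 0.50), with edgeR adjusted p between 0.561 and 0.889. None of the 6 had an unadjusted p under 0.05 for that difference, and edgeR called 0 of 15982 genes. Fold changes in females moved with which of the 2 libraries labelled MD1 female was kept. Without MD1 replicate 1, MD1 replicate 4 was the lone MD1 library of the female contrast, assumed to vary like the other groups. The contrast then called 5456 of 16127 genes, 33.8%, and 2 of the 6, Pcdhb18 (log2 fold change 1.43, edgeR adjusted p = 0.0199) and Pcdhb22 (1.35, 0.00232), which is close to that share. The difference between the sexes then called 3637 genes, 22.6%, and 1 of the 6, Pcdhb21 at -2.18 (SE 0.53, edgeR adjusted p = 0.0131), whose log2 fold change in females was -0.17. Without MD1 replicate 4 instead, the female contrast called 18 of 16095 genes, 0.112%, with Pcdhb22 among them (log2 fold change 2.20, edgeR adjusted p = 0.00116). Pcdhb21 then stood at 1.63 in females, and the difference between the sexes called 7 genes, 0.0435%, and none of the 6, with no unadjusted p under 0.05 and values from -0.44 to -0.18.

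Levels of different genes can be set side by side only per length, here as CPM per kilobase of exon. In MD1 the order was Pcdhb22 at 4.50 ± 1.18, Pcdhb21 at 1.75 ± 0.797, Pcdhb20 at 1.71 ± 0.444, Pcdhb17 at 1.67 ± 0.407, Pcdhb19 at 1.31 ± 0.370 and Pcdhb18 at 1.02 ± 0.224 CPM per kilobase (SD, n = 4). Between Pcdhb22 and Pcdhb21 the ranges of the libraries did not overlap, while all other neighbours in that order overlapped. In WT, Pcdhb22 stood at 1.04 ± 0.357, Pcdhb17 at 0.941 ± 0.332, Pcdhb21 at 0.655 ± 0.247, Pcdhb20 at 0.612 ± 0.329, Pcdhb19 at 0.379 ± 0.115 and Pcdhb18 at 0.348 ± 0.134 CPM per kilobase (SD, n = 6), and every pair of neighbours overlapped. Pcdhb22 was the highest in 4 of 4 MD1 libraries and in 5 of 6 WT libraries, with Pcdhb17 ahead of it in the remaining one. Pcdhb18 was the lowest in 3 of the MD1 libraries and 3 of the WT libraries. The deposited RPKM values gave the same order of means in both genotypes.

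**Figure D3:**
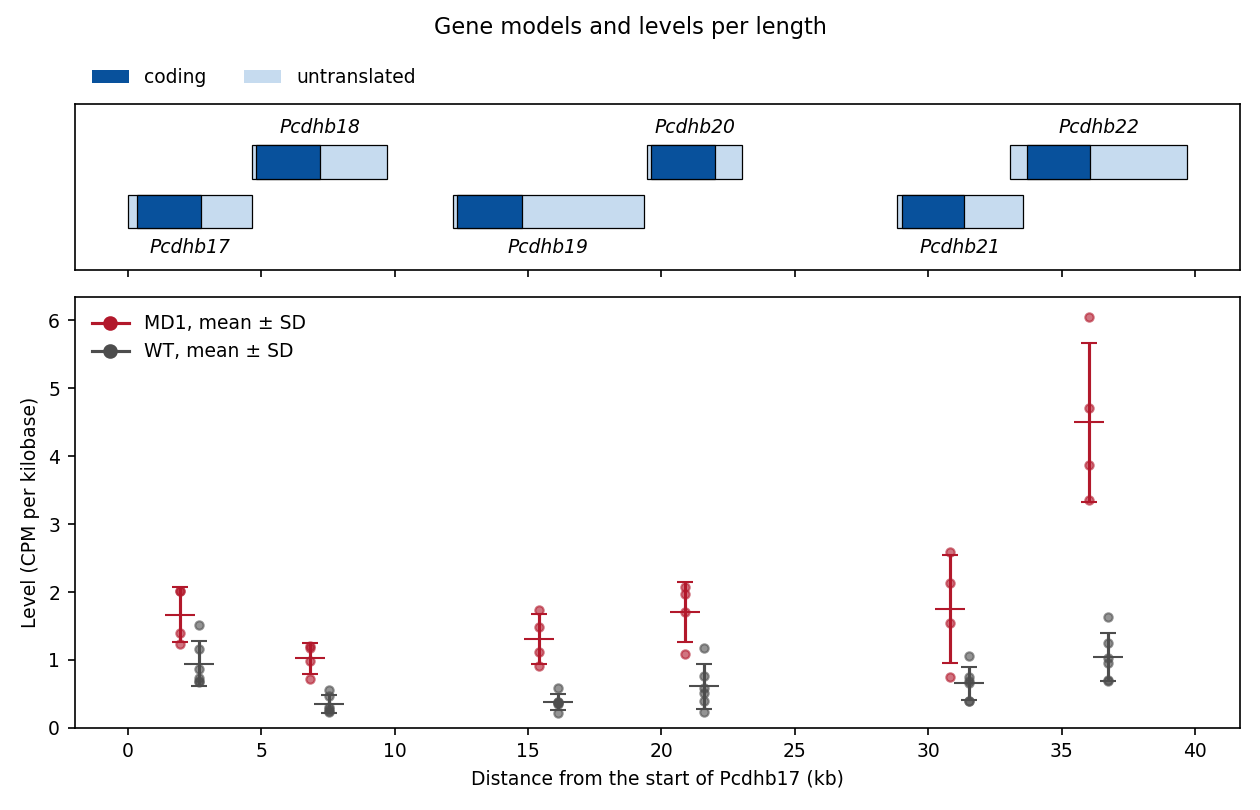
Top, gene models of the 6 distal Pcdhb genes against the distance from the start of Pcdhb17 in kilobases, with coding (dark) and untranslated (light) parts drawn to scale and neighbours on alternate rows. Bottom, level in CPM per kilobase at each gene's midpoint for MD1 (red, left, n = 4) and WT (grey, right, n = 6), points for libraries and bars for mean ± SD. Pcdhb22 is highest in MD1 at 4.50 ± 1.18, apart from the other 5 genes, whose MD1 means lie between 1.02 and 1.75.

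The make-up of the 6 genes within a library does not depend on how libraries are scaled. As a share of their summed reads per kilobase, Pcdhb17 took 13.2, 15.7, 13.2 and 13.6% in MD1 replicates 1 to 4 and 23.1, 25.1, 25.2, 23.2, 21.0 and 24.7% in WT replicates 1 to 6. No MD1 library reached the WT range. The means were 13.9 ± 1.19% in MD1 and 23.7 ± 1.63% in WT (SD, n = 4 and 6), a difference of -9.79 percentage points. Pcdhb22 took 39.5, 30.2, 44.6 and 36.8% in MD1 replicates 1 to 4, with a mean of 37.8 ± 5.97%. In WT its share was 21.4% in the lowest library, 31.3% in the highest and 26.3 ± 3.26% on average, so that MD1 replicate 2 overlapped the WT range. The shares of Pcdhb18, Pcdhb19, Pcdhb20 and Pcdhb21 differed between the genotypes by 0.06, 1.25, -0.36 and -2.62 percentage points (MD1 minus WT), and their ranges overlapped. No test was run on shares, which add up to 100% and so do not move independently.

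**Figure D4:**
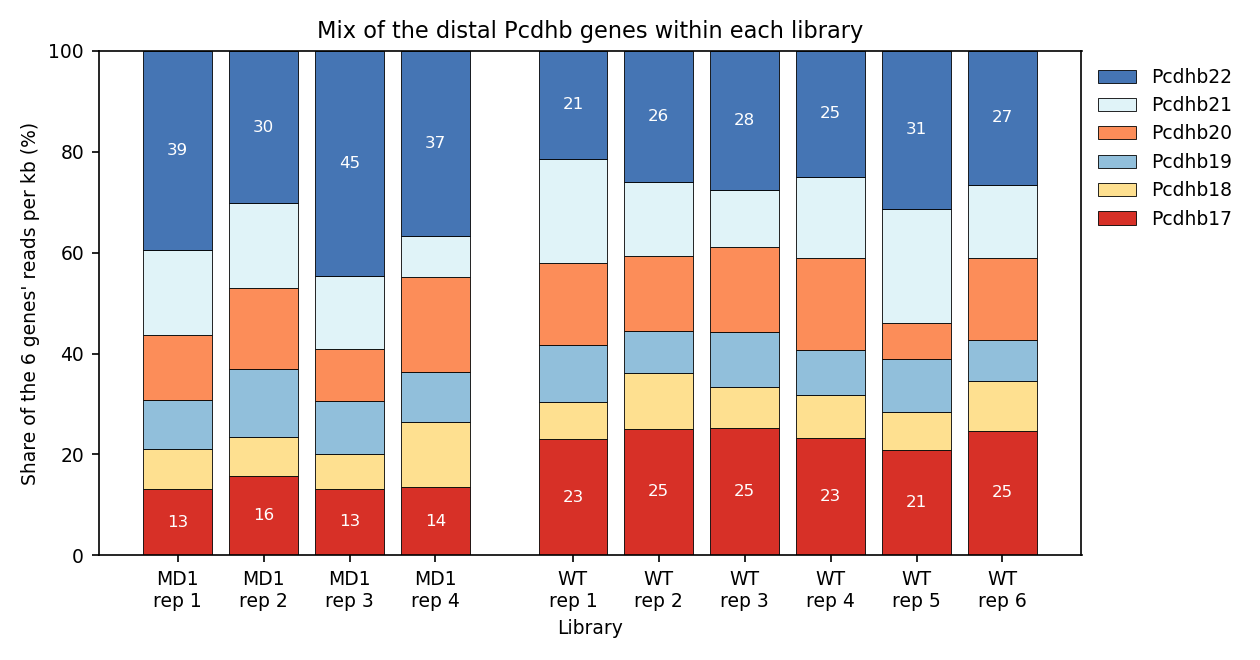
Share of each distal Pcdhb gene in the summed reads per kilobase of the 6 genes (vertical axis, %), 1 bar per library, MD1 replicates 1 to 4 on the left and WT replicates 1 to 6 on the right, with the shares of Pcdhb17 and Pcdhb22 printed in the bars as whole percents. Pcdhb17, at the foot, takes 13.2 to 15.7% in MD1 and 21.0 to 25.2% in WT.

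Across the 10 libraries the 6 genes went up and down together. Over their 15 pairs, Pearson's r of log2 CPM had a median of 0.89 (0.73 to 0.95), a measure that the genotype difference enters. After each genotype's mean was subtracted the median was 0.68, from 0.28 for Pcdhb18 with Pcdhb21 to 0.87 for Pcdhb17 with Pcdhb19. It was 0.58 (0.01 to 0.79) without WT replicate 4, and 0.75 (0.39 to 0.94) within the 6 WT libraries. The points share libraries, and neighbouring genes can share reads, so these values are descriptions.

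Outside the clustered protocadherins, the tested autosomal genes most like the mean profile of the 6 after subtraction of genotype means were Thsd4 (r = 0.97), Pnmal2 (0.93), Irf2bpl (0.91), Scarf2 (0.90) and Ripor2 (0.90), over 10 libraries. Picked as the highest of all such genes over only 10 libraries, these 5 have r values raised by the picking. Thsd4 encodes a secreted protein of fibrillin microfibrils, and Scarf2 a scavenger receptor family protein. None of these 5 was called between genotypes (edgeR adjusted p from 0.511 to 0.876). Their r was between 0.81 and 0.94 without WT replicate 4 and MD1 replicate 1, the libraries farthest from the median of the profile. That range is not independent of the picking, which used all 10 libraries. Before subtraction the genes most like the profile, picked in the same way, were Tmem184c (0.91), Vmn1r90 (0.91), Gm37446 (0.89), Elac1 (0.89) and Gm46339 (0.86). Clustered protocadherins had been left out by symbol only. Vmn1r90, annotated as a vomeronasal receptor, was itself called (log2 fold change 4.66, edgeR adjusted p = 0.0104). Gm37446 shares 1927 exon bases with Pcdhb12, so it is not separate from the beta cluster. Reads of the shared part may not be assignable to either gene.

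The distal genes can be set in the rest of their cluster. Of Pcdhb1 to Pcdhb16, 13 of 16 passed the filter and all 13 had a higher estimate in MD1, with a median log2 fold change of 1.91, 4 calls (Pcdhb2, Pcdhb11, Pcdhb13 and Pcdhb16) and a range from 0.50 to 3.54, beside a range from 0.83 to 2.11 in the distal 6. Pcdhb16, which ends 1756 bases before Pcdhb17 starts, had 10.4, 10.8, 7.72 and 7.44 CPM in MD1 replicates 1 to 4, against 1.07 to 3.55 CPM in WT. Its log2 fold change was 2.00 (SE 0.31, edgeR adjusted p = 0.0354), beside 0.83 (SE 0.26) in Pcdhb17, and the difference between these neighbours was not tested. On the other side of Pcdhb22, the next annotated gene, 4930517L18Rik, lies 94426 bases away and had 0 reads in all 10 libraries. Taf7, a general transcription factor subunit 116011 bases past Pcdhb22, was at 42.3 ± 10.3 CPM in MD1 and 44.8 ± 3.10 CPM in WT (SD, n = 4 and 6, log2 fold change -0.10, edgeR adjusted p = 0.802).

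**Figure D5:**
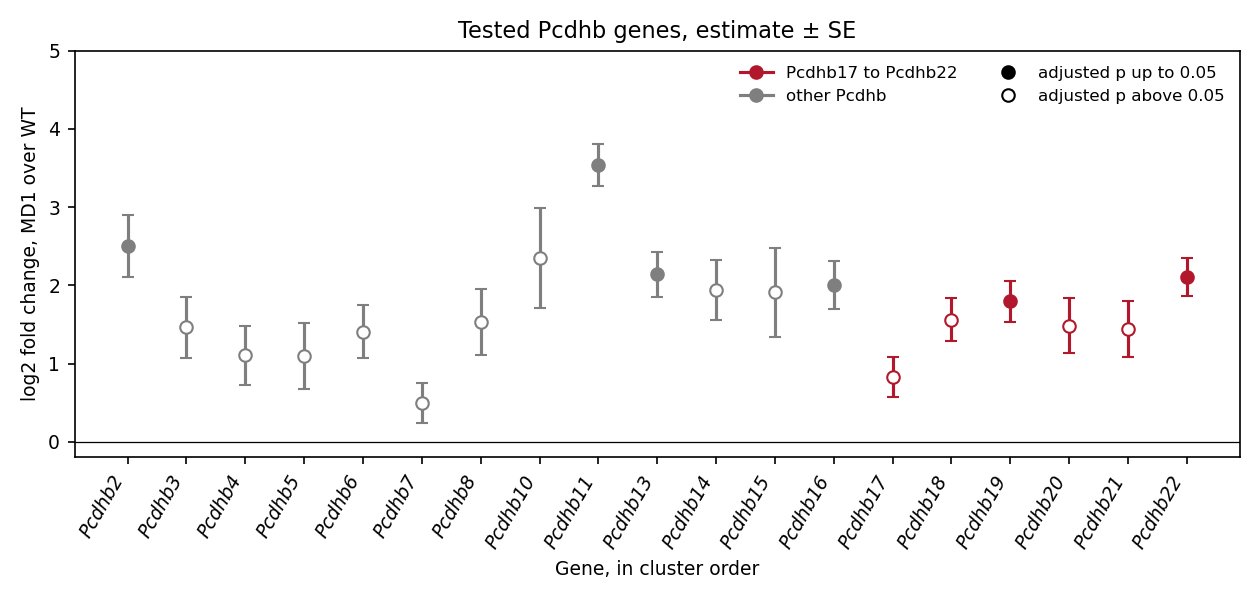
Log2 fold change of MD1 over WT (vertical axis, estimate ± SE from edgeR) for the 19 Pcdhb genes that passed the filter, in cluster order, the distal genes in red and the others in grey. Filled points have an adjusted p up to 0.05 and open points above it. All 19 lie above 0, and among the distal genes Pcdhb17 is the lowest at 0.83 and Pcdhb22 the highest at 2.11.

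The alpha and gamma arrays, on either side of the beta cluster, had estimates of opposite sign. All 13 Pcdha genes tested had a higher estimate in MD1, with a median log2 fold change of 1.40, and edgeR called none of them, although all 13 had an unadjusted p under 0.05. These genes share constant exons, so they are not 13 separate measurements. All 21 Pcdhg genes had a lower estimate, with a median of -0.11, none called by edgeR and 1 with an unadjusted p under 0.05, and these genes too share constant exons and are not separate measurements. The 10 tested flanking genes outside the clusters, of 12 listed, had 6 higher and 4 lower estimates, a median of 0.00 and no call in edgeR, also none at an unadjusted p under 0.05.

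Among 18 genes known for control of clustered protocadherins, such as Ctcf, the cohesin subunit Rad21 and the methyltransferase Dnmt3b, 15 were in the autosomal fit. Smchd1 was called lower in MD1 and no other was called in edgeR, with 7 of the 15 higher and 8 lower. Lrif1, which encodes a binding partner of SMCHD1, was at 32 ± 1.55 CPM in MD1 and 21.9 ± 2.13 CPM in WT (SD, n = 4 and 6), and its log2 fold change was 0.55 (SE 0.10, edgeR adjusted p = 0.113).

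Markers of the cell types a dissected FNP could hold were read beside the distal genes. All 13 facial mesenchyme and neural crest markers had reads in every library, with sums of 1225 to 2005 CPM in MD1 and 1683 to 2398 CPM in WT. Of these 13, 2 had a higher estimate in MD1 and 11 a lower one. Neuron markers, the cells in which clustered protocadherins are best known, summed to 263 to 512 CPM in MD1 and 334 to 552 CPM in WT, and 3 of the 12 tested had a higher estimate in MD1 against 9 lower. WT replicate 4, highest of the WT libraries in all 6 distal genes, was also highest of them in neuron (552 CPM) and mesenchyme markers (2398 CPM). MD1 replicate 4, with the lowest distal sum of the MD1 libraries, was lowest of them in both (263 and 1225 CPM). In MD1 replicates 1 to 4, mesenchyme sums were 2005, 1968, 1626 and 1225 CPM, and neuron sums 470, 512, 344 and 263 CPM. The distal sums of these MD1 libraries were 85.3, 69.7, 60.3 and 49.9 CPM. WT replicate 4 was also highest of WT in erythroid (4314 CPM) and yolk sac markers (28.5 CPM), and lowest in forebrain markers (961 CPM). WT replicate 6 had the next highest distal sum in WT (24.6 CPM). Its neuron (456 CPM) and mesenchyme sums (1691 CPM) lay below those of WT replicates 1 and 3. The part of cell composition in the distal Pcdhb levels was not tested. Forebrain neuroepithelium markers summed to 1049 to 1167 CPM in MD1 and 961 to 1258 CPM in WT.

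Erythroid, yolk sac and hypoxia lists were highest in MD1 replicates 1 or 4. Erythroid markers summed to 20272 CPM in MD1 replicate 4, against 2616 to 4238 CPM in the other MD1 libraries and 2991 to 4314 CPM in WT. Yolk sac endoderm markers summed to 344 CPM in MD1 replicate 1 and 89.7 CPM in MD1 replicate 4, against 0.896 and 1.21 CPM in the other MD1 libraries and 1.6 to 28.5 CPM in WT. All 13 hypoxia genes tested had a higher estimate in MD1 and an unadjusted p under 0.05, with a median log2 fold change of 1.71. The same held for all 3 yolk sac genes tested, with a median of 3.72, while all 7 erythroid genes tested had a higher estimate, 2 of them at an unadjusted p under 0.05, with a median of 0.99. After adjustment edgeR called none of the genes of these lists or of the other marker lists. Their part in the distal Pcdhb levels was not tested. Without both of these MD1 libraries, the log2 fold changes from Pcdhb17 to Pcdhb22 in gene order were 0.88, 1.31, 1.94, 1.40, 1.54 and 2.03. With them the values were 0.83, 1.56, 1.79, 1.49, 1.44 and 2.11. Without them edgeR called Pcdhb22 and Pcdhb19 (adjusted p = 0.0141 and 0.0445) among 6 of 15574 genes, 0.0385%.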

How the data were processed

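FNP libraries were prepared with a TruSeq RNA kit and sequenced single-end at 75 bases. The paper names version v2 or a stranded mRNA version of the kit, without saying which served for FNP. Per the study's methods and the submitters' processing notes, trimming used Trim Galore 0.4.4, alignment used HISAT2 2.0.5 and GRCm38.p6, and reads were then quantified per gene in SeqMonk. The authors deposited raw read counts and, in a second table, log2 RPKM values normalized for library size and length. Columns of genotype means were not used. Groups and replicate numbers were taken from the labels.

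The count table had 35591 rows. In 27 a date stood in place of the symbol, which was restored from the identifier, and of 49 rows repeating an identifier those with more reads were kept, leaving 35542 genes. Counts were tested with edgeR 4.0.16 in R 4.3.3 (filterByExpr, TMM, quasi-likelihood test, Benjamini-Hochberg, threshold 0.05), MD1 against WT without covariates on 15452 autosomal genes, since the study left out sex chromosomes. Effects within sexes and their difference came from 1 model with 4 group means on 15982 genes of all chromosomes. Levels are TMM-scaled CPM, and correlations used log2 CPM with a prior count of 2. Gene models came from GENCODE M21, and shared windows from an exact search on its transcripts. Alternatives were DESeq2 1.42.0, edgeR's exact test, limma 3.58.1 (voom, and log2 RPKM with trend), other scalings and filters, labelled sex as a covariate, a replicate block and libraries left out.

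Total counts ranged from 4195119 to 24125084 per library, the lowest in MD1 replicate 3. The text names the 6 distal genes, their neighbours on either side, Smchd1 and called genes of the lists. It also names the 5 genes most correlated with the distal genes under each measure, leaving out clustered protocadherins by symbol. Taf7, Lrif1 and examples within lists were named after their values were seen. The genes and lists were chosen with earlier results of these data known.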

Additional observations from a re-analysis of the deposited data

Results flagged for a closer look

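In 24 groups of libraries, the level or share of a distal Pcdhb gene in 1 genotype, the highest and lowest library were compared with the rest of their group, and chance flags about 1 group in 20. The share of Pcdhb17 among the 6 genes per kilobase was 15.7% in MD1 replicate 2, far from the other MD1 libraries, whose lowest was 13.2%, with a gap of 0.838 of the group's range. It still lay below the lowest WT share of 21.0%. The share of Pcdhb20 was 7.27% in WT replicate 5, from 9 reads, far below the other WT libraries, whose highest was 18.1%, with a gap of 0.692 of the range.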

How the results depend on the processing

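With all libraries, edgeR called 2 of the 6 distal Pcdhb genes, against 5 in DESeq2, 4 in edgeR's exact test, 3 in limma-voom and 1 in limma on the deposited log2 RPKM. Leaving out 1 library gave 1 to 3 called genes in the comparison of genotypes, with between 0.0257% and 0.0835% of all genes called. Counts within the labelled sexes moved as well, but leaving out an MD1 library left only 1 MD1 library of its labelled sex. Without the deepest and the shallowest library, 0 were called, although 6 had an unadjusted p under 0.05 and 2 of 15573 genes were called in all (smallest adjusted p 0.128, for Pcdhb22). The share of all genes at that unadjusted p was not counted. Between libraries of 1 replicate number, deviations from the genotype means correlated at 0.00, -0.07, 0.05 and -0.12. These values cannot settle whether the numbers pair libraries, since libraries of different numbers were not compared. With the replicate number as a block, 0 were called and 0 of 15452 genes passed. All 6 had an unadjusted p under 0.05, again with no count of all genes at that p. For replicate 1 the block joined a WT library labelled male to an MD1 library labelled female. WT replicates 5 and 6 had no MD1 library of their number and so added nothing to the genotype estimate. Scaling, filters on low counts, labelled sex as a covariate, all chromosomes and summed identifiers left the count at 2, with 8 to 12 genes called in all (0.0481% to 0.0806%). The covariate kept the label of MD1 replicate 1, which goes against its Y-linked reads. Over both sexes no fold change of the 6 between genotypes reversed, whereas within females that of Pcdhb21 was -0.17 without MD1 replicate 1, against 1.01 with it. Orders of mean levels per kilobase exchanged Pcdhb17, Pcdhb20 and Pcdhb21 in MD1 without replicate 1, 3 or 4, and Pcdhb20 and Pcdhb21 in WT without replicate 5. The lowest read counts were 9 for Pcdhb20 in WT replicate 5 and 11 for Pcdhb18 in WT replicate 1.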
